A study of Mus musculus with 4 samples.

Results

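miR-221 and miR-222 are the products of a pair of neighbouring miRNA hairpins on the mouse X chromosome, and their levels were followed in extracellular vesicles, the membrane particles that cells release with RNA inside. The entries were chosen by identifier: the rows of miR-221-3p (MIMAT0000669) and miR-222-3p (MIMAT0000670), plus the 5p arm of each hairpin, found on the same strand within 60 bases. This gave 4 of the 2110 rows of mature miRNA entries in the table. The vesicles came from C2C12, an established mouse myoblast line of labelled genotype WT that was grown with 10% fetal bovine serum. The damaged group (2 libraries) received hydrogen peroxide and the WT group (2 libraries) carries the treatment label WT. The sources used here give neither the dose nor the exposure time. They do not say whether replicates are separate cultures, and p-values therefore reflect only library-to-library spread, possibly of technical origin. The series asked how vesicle miRNA cargo differs between healthy muscle cells and cells damaged by peroxide.

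A miRNA gene is transcribed as a hairpin whose arms are cut out as a short duplex, and usually 1 arm is kept in the silencing complex while the other is degraded. Bases 2 to 8 of the kept arm, the seed, pair with target mRNAs and lower their output. miR-221 and miR-222 share a seed and are best known for repressing the cell-cycle inhibitor p27 (Cdkn1b) and the receptor Kit. In myoblasts they are linked to proliferation and decline as cells differentiate.

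The mature sequences are shown with bases 2 to 8 in capitals. The seed defines the family, while the remaining bases let reads be assigned to each gene. In miR-221-3p, miR-222-3p and miR-1928 the capitals are the shared seed, while those of miR-221-5p differ. All are RefSeq sequences on GRCm38.p6, written 5′ to 3′, and 3 of the 4 entries were matched (miR-222-5p was not).
miR-221-3p: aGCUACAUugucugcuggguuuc
miR-222-3p: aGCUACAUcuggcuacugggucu
miR-1928: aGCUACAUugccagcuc
miR-221-5p: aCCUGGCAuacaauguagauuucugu
The 3p arms are identical over the first 8 bases and at 11 of 23 positions without gaps, so their full-length reads differ enough to be told apart. miR-1928, which lies on chromosome 1 (74206562 to 74206578, minus strand), was the only other row with this seed. It shares its first 10 bases with miR-221-3p. It had 0 counts in WT replicate 1, 1 in WT replicate 2, 0 in damaged replicate 1 and 1 in damaged replicate 2, so nearly all counts with this seed belonged to the hairpin pair.

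All 4 entries lie on the minus strand of chromosome X (mm10), outside annotated genes other than their own hairpin genes Mir221 and Mir222. miR-221-3p is at 19146307 to 19146329 and miR-221-5p at 19146344 to 19146369. miR-222-3p is at 19146901 to 19146923 and miR-222-5p at 19146941 to 19146961. The hairpins are 95 and 79 bases long with 504 bases between them, and the nearest other annotated gene, the non-coding Gm14636, starts 10010 bases away on the same strand. Each entry has a single copy in the table, and none shares bases with an entry on the opposite strand, so the unstranded counting does not mix them with another miRNA.

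Sites for the shared seed are shown for the targets named above, to give the seed match its context in genes reported as targets. The match to bases 2 to 8 is ATGTAGC, here in capitals, and the GENCODE vM21 3′ UTRs were searched on the transcript strand.
Cdkn1b, chr6:134924419-134924448, plus strand: taaaagcattggATGTAGCattgcgcaatt
Kit, chr5:75654980-75655009, plus strand: gatgggagatatATGTAGCaagactagaaa
Kit, chr5:75656511-75656540, plus strand: gtaaatattgaaATGTAGCaataatgtctt
Of all 21010 genes with an annotated 3′ UTR, 8.74% hold the match. Among UTRs within 20% of the same length it was 22.5% for Cdkn1b and 15.4% for Kit. Of 8 genes reported as targets, 7 hold at least 1 match (Cdkn1b, Cdkn1c, Kit, Bbc3, Bmf, Timp3 and Ets1, but not Foxo3). For these 8 genes the share among UTRs of like length ran from 4.6% (Cdkn1c) to 29.3% (Foxo3). The count is not a test, since reported targets may have been picked by this match. A match is a description of the sequence, and no mRNA was measured here.

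Library totals ranged from 4577668 to 7638663 counts, with the lowest in WT replicate 1. Values below are CPM, each row's count scaled to a common library size by TMM, so they are shares of each library's miRNA. More vesicles and more miRNA per vesicle cannot be told apart. The 4 muscle marker miRNAs summed to 294800 and 334200 CPM of library totals in WT and to 354700 and 380700 CPM in damaged. All 4 had counts, so the vesicles carried the muscle miRNAs the label implies, but nearly all of the sum was miR-206-3p. The 7 blood markers, of which miR-142a-3p and miR-486a-5p were at 0, summed to 1521 to 1722 CPM in WT and 1483 to 1546 CPM in damaged. Nearly all of that sum was miR-451a. Of the scarcer blood markers, miR-144-3p, miR-142a-5p and miR-150-5p were higher in both damaged libraries. miR-223-3p was not, at 26.4 and 13.1 CPM in WT replicates 1 and 2 and 14.4 CPM in each damaged library. In WT replicates 1 and 2 and damaged replicates 1 and 2, in that order, miR-144-3p had 0, 0, 12 and 14 counts, miR-142a-5p 1, 0, 21 and 22, and miR-150-5p 158, 173, 250 and 337. Their part in the results was not tested. The endothelial markers miR-126a-3p and miR-126a-5p, the liver marker miR-122-5p and the neural marker miR-9-5p were at 0 in every library. So were the blood markers miR-142a-3p and miR-486a-5p. All of these share bases with an opposite-strand entry, which the counting leaves unassigned, so their 0 does not show absence. Neural miR-124-3p had 1 count in all, and the 5 epithelial markers, with miR-141-3p and miR-200b-3p at 0, summed to 0 to 12.03 CPM. Bovine miRNAs of the serum were not separated from mouse ones, and their part in any level here was not tested.

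Both 3p arms were well represented in the vesicles and both 5p arms were scarce. miR-221-3p ranked 62nd to 66th and miR-222-3p 69th to 87th by library among 1966 mature IDs, by counts with copies summed and not corrected for length. miR-222-5p ranked 211th to 247th and miR-221-5p 348th to 468th. Summed over the 4 entries, their share of all counts was 0.121% and 0.112% in WT replicates 1 and 2, and 0.139% and 0.118% in damaged replicates 1 and 2. Exact (Clopper-Pearson) 95% intervals were 0.118 to 0.124, 0.109 to 0.114, 0.137 to 0.142 and 0.116 to 0.121 in that order. Here and below they cover counting error only, as no molecular identifiers are described. Per base of the mature entry, the mean level over the 4 libraries was 31.6 CPM for miR-221-3p, 20.7 for miR-222-3p, 0.939 for miR-222-5p and 0.0983 for miR-221-5p. The order was the same in each of the 4 libraries.

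miR-221-3p, the most abundant of the entries, did not separate the groups. It had 780 CPM in WT replicate 1 and 702 in WT replicate 2, and 754 CPM in damaged replicate 1 and 676 in damaged replicate 2. The groups overlapped, and in each group replicate 1 was the higher library. WT averaged 741 ± 54.8 CPM and damaged 715 ± 55.1 CPM (SD, n = 2). The log2 fold change, damaged over WT, was -0.052 ± 0.14 (SE; 95% interval -0.40 to 0.29; adjusted p = 0.871 by edgeR's quasi-likelihood test). The interval includes no change and also a modest shift in either direction. In mean CPM, not corrected for entry length, miR-221-3p stood between a row of miR-218-5p, at 942 ± 151 and 518 ± 18.7 CPM in WT and damaged, and miR-15b-5p, at 1060.5 ± 35.1 and 370 ± 2.58 CPM (SD, n = 2). Over all libraries its mean of 728 CPM lay near theirs of 730.0 and 715 CPM, but both neighbours had higher means than miR-221-3p in WT and lower ones in damaged vesicles.

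miR-222-3p was higher in both damaged libraries than in both WT libraries, but the difference did not pass the test. It had 422 CPM in WT replicate 1 and 399 in WT replicate 2, and 633 CPM in damaged replicate 1 and 451.0 in damaged replicate 2. Damaged replicate 1 stood well above the other 3 libraries, and damaged replicate 2 was close to WT. WT averaged 410.2 ± 16.5 CPM and damaged 542 ± 129 CPM (SD, n = 2). The log2 fold change was 0.40 ± 0.20 (SE; 95% interval -0.10 to 0.90; 1.32-fold; adjusted p = 0.238 by edgeR). Among all tested rows, 29.1% had both damaged libraries above both WT libraries, 30.8% had both below and 40.1% overlapped, so this order is common in the table.

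The size of the miR-222-3p difference rested on damaged replicate 1. Without that library it was 0.11 on the log2 scale (edgeR adjusted p = 0.675). Without damaged replicate 2 it was 0.62, with adjusted p = 0.126 by edgeR, 0.0265 by DESeq2 and 0.0276 by limma-voom, where the lone damaged library is assumed to vary like the others. On those 3 libraries edgeR called 5.14% of all tested rows, DESeq2 14.2% and limma-voom 16.8%. In mean CPM over all libraries miR-222-3p, at 476, stood between miR-30a-3p at 503 and miR-378c at 475. By group, miR-30a-3p had 541 ± 56.4 CPM for WT and 465 ± 10.47 for damaged, and miR-378c 459 ± 27.2 and 491 ± 67.2 (SD, n = 2). Both neighbours were thus above miR-222-3p in WT by more than the SDs, and their damaged means were within its spread.

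**Figure D1:**
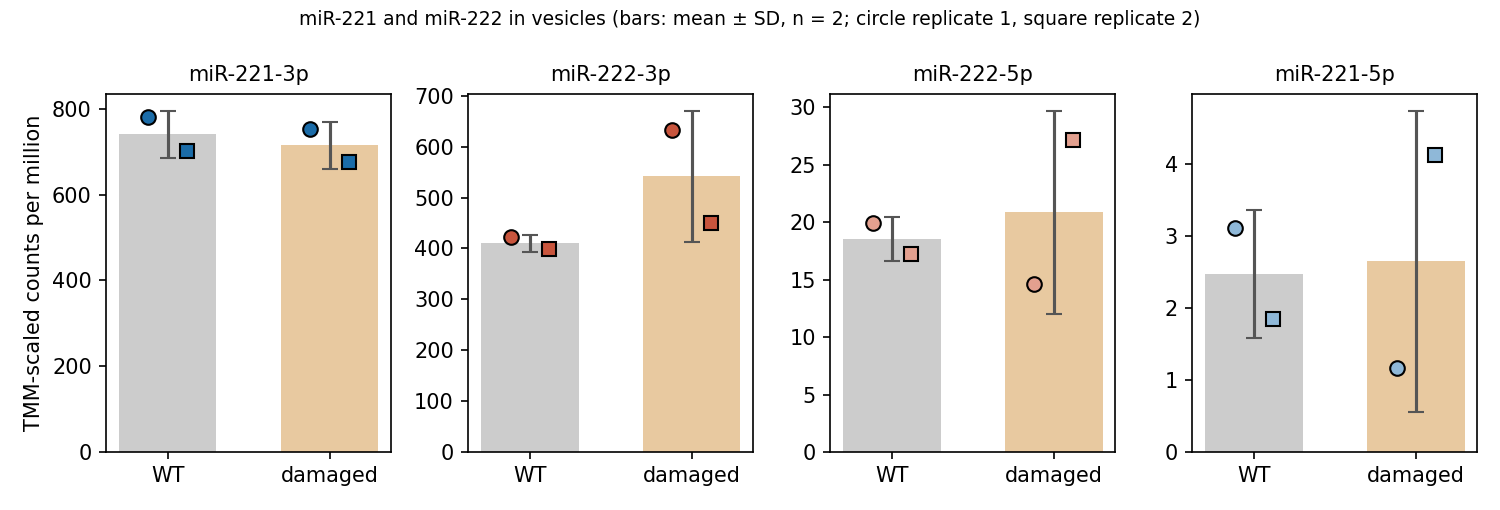
TMM-scaled CPM (vertical axis, from 0, on its own scale in each panel) of miR-221-3p, miR-222-3p, miR-222-5p and miR-221-5p in WT and damaged vesicles; bars are means with SD (n = 2), circles replicate 1 and squares replicate 2. miR-222-3p reached 633 CPM in damaged replicate 1 against 399 to 451.0 CPM in the other libraries, while miR-221-3p overlapped between the groups.

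The 5p arms, taken as the degraded strands of these hairpins, were low and uneven between the damaged replicates. miR-222-5p had 19.9 CPM in WT replicate 1 and 17.2 in WT replicate 2, and 14.6 CPM in damaged replicate 1 and 27.1 in damaged replicate 2. Its WT libraries lay between the damaged ones. The log2 fold change was 0.17 ± 0.39 (SE; 95% interval -0.81 to 1.16; adjusted p = 0.840 by edgeR). miR-221-5p rested on 14 counts in WT replicate 1, 14 in WT replicate 2, 8 in damaged replicate 1 and 31 in damaged replicate 2. These correspond to 3.10, 1.84, 1.17 and 4.12 CPM. Here too damaged replicate 1 was the lowest and damaged replicate 2 the highest library. Its log2 fold change of 0.11 ± 0.94 (SE; 95% interval -2.27 to 2.49; adjusted p = 0.967 by edgeR) leaves changes of several fold in either direction undetectable at this depth.

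All 4 entries passed the filter on low counts and were tested, and edgeR called none of them. Over the whole table it called 51 of 536 rows (9.51%), 4.1% as higher and 5.41% as lower. In this fit none of the 4 had an unadjusted p below 0.05 either, against 165 of all tested rows, and 211 rows had a smaller p than miR-222-3p. With no filter on low counts, edgeR gave miR-222-3p an unadjusted p of 0.0164 (adjusted p = 0.107). Without the filter, 198 of 1001 rows had an unadjusted p below 0.05. DESeq2 and limma-voom on all 4 libraries called none of the 4 entries. Summing the 3p arms into 1 row, a step added after seeing the data, gave counts of 5426 and 8382 in WT replicates 1 and 2, and of 9507 and 8471 in damaged replicates 1 and 2. The summed log2 fold change was 0.13 ± 0.15 (SE; 95% interval -0.25 to 0.50; adjusted p = 0.635 by edgeR).

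**Figure D2:**
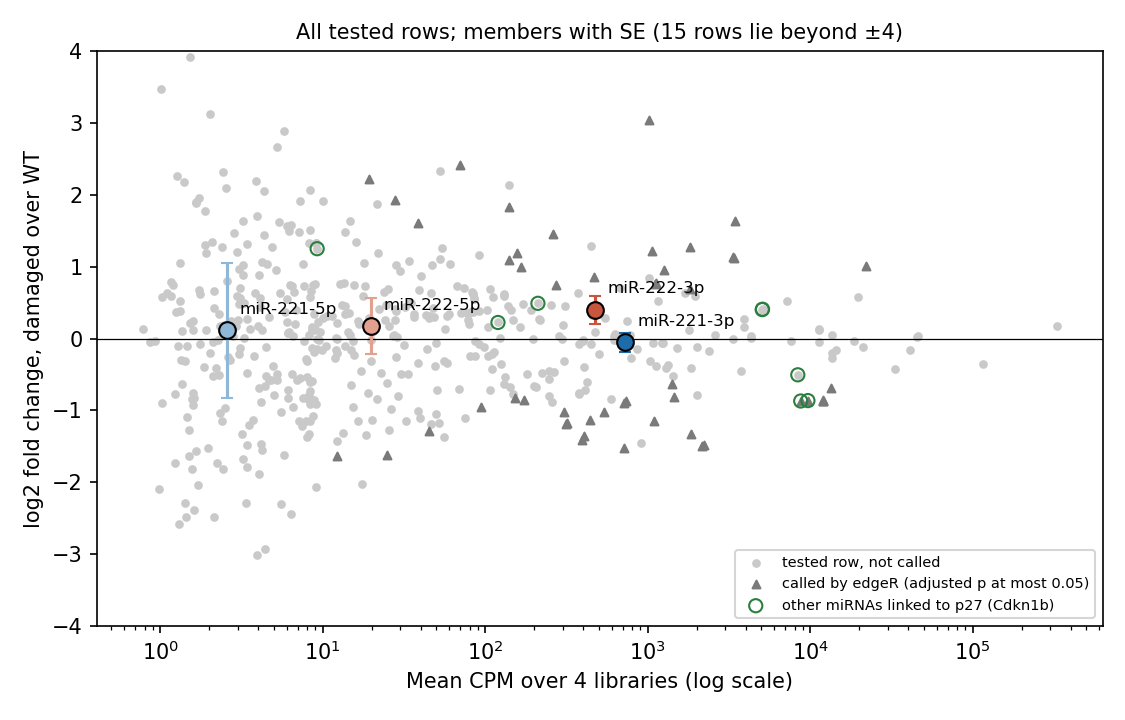
Log2 fold change of damaged over WT (vertical axis) against mean CPM over the 4 libraries (horizontal log axis) for the 536 tested rows; triangles were called by edgeR, open circles are other miRNAs linked to p27, and the labelled points are the 4 entries with their SE. The entries lie between -0.052 and 0.40, and 15 rows fall outside the plotted range.

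Because both hairpins lie 504 bases apart on 1 strand, the balance between their 3p arms was compared within each library, which needs no scaling. In WT, miR-221-3p made up 64.9% of the summed 3p counts of replicate 1 (exact 95% interval 63.6–66.2) and 63.8% of those of replicate 2 (62.7–64.8). In damaged, it made up 54.3% for replicate 1 (53.3–55.3) and 59.97% for replicate 2 (58.9–61.0). Both damaged libraries were below both WT libraries, and the intervals of the groups did not overlap, so counting error alone is smaller than this gap. There were thus 1.85 and 1.76 reads of miR-221-3p per read of miR-222-3p in WT replicates 1 and 2, and 1.19 and 1.498 in damaged replicates 1 and 2.

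On the log2 scale, WT had a ratio of 0.85 ± 0.05 and damaged of 0.42 ± 0.23 (SD, n = 2), a difference of -0.43. The exact two-sided permutation test gave p = 0.333, the smallest p that 2 libraries against 2 allow. Without damaged replicate 1 the difference was -0.27, and over the 4 sets that leave out 1 library it ran from -0.60 to -0.27. Such shifts between neighbours were common: of 62 neighbouring hairpin pairs within 10000 bases and with at least 100 counts on average, 69.4% had ratios that did not overlap between the groups. In 33 of all 62 pairs the difference was larger than that of miR-221-3p and miR-222-3p, and the median size over the 62 was 0.45.

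The arm balance within each hairpin also varied more between the damaged replicates than between the groups. In WT, the 5p arm of miR-222 took 4.51% of the hairpin's counts for replicate 1 (exact 95% interval 3.64–5.52) and 4.14% for replicate 2 (3.47–4.89). In damaged, it took 2.25% for replicate 1 (1.84–2.73) and 5.67% for replicate 2 (4.94–6.48). Damaged replicate 1 was thus below both WT libraries beyond counting error.

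For miR-221 the 5p arm of WT took 0.396% for replicate 1 (0.217–0.664) and 0.261% for replicate 2 (0.143–0.438). In damaged it took 0.155% for replicate 1 (0.0668–0.304) and 0.607% for replicate 2 (0.412–0.860). The damaged libraries lay on either side of WT in both hairpins. For miR-221 each damaged interval overlapped both WT intervals, so this order is not clear of counting error. For miR-222 the interval of damaged replicate 2 overlapped that of WT replicate 1. For miR-221, WT had a log2 ratio of 3p to 5p counts of 8.23 ± 0.43 and damaged of 8.29 ± 1.35, and for miR-222 of 4.46 ± 0.09 and 4.74 ± 0.98 (SD, n = 2). Neither ratio separated the groups (exact two-sided permutation p = 1.0 each). Without damaged replicate 1 the differences turned from 0.065 to -0.89 for miR-221 and from 0.28 to -0.41 for miR-222; without WT replicate 1 that of miR-221 was -0.24.

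Across the 151 hairpins with both arms tested, the minor arm took a median of 5.46% of counts. The means of 0.355% for miR-221 and 4.14% for miR-222 were above those of 25 and 69 hairpins, so the miR-221 hairpin is among the more one-sided of these. Hairpins whose minor arm was too low to be tested are left out of this ranking. The order seen in both hairpins, with damaged replicate 1 below and damaged replicate 2 above both WT libraries, occurred in 10 of the 151 (6.62%). The opposite order occurred in 8 (5.3%).

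**Figure D3:**
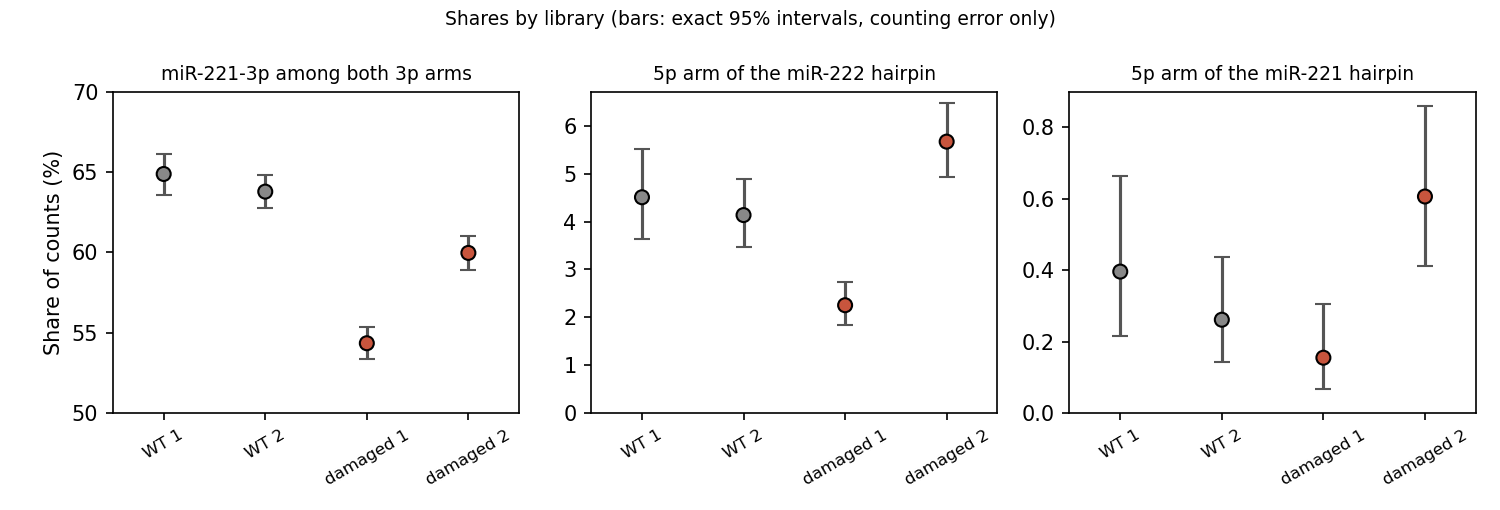
Share of counts (vertical axis, %) in each library for miR-221-3p among both 3p arms (axis from 50 to 70), the 5p arm among miR-222 counts and the 5p arm among miR-221 counts; bars are exact 95% intervals for counting error only. The first share is 63.8% to 64.9% in WT and 54.3% to 59.97% in damaged, while both 5p shares have the damaged libraries on either side of WT.

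The entries whose pattern over the 4 libraries was most like each 3p arm were found by the distance of centred log2 CPM, as a description with no test. For miR-221-3p they were miR-423-3p (distance 0.0743), miR-451a (0.0895), a miRNA of red blood cells, and miR-3102-3p (0.092). Their log2 fold changes were -0.033, -0.14 and -0.10, and none passed. For miR-222-3p they were miR-1981-5p (0.0551), the muscle miRNA miR-1a-3p (0.197) and miR-181a-5p (0.207), with log2 fold changes of 0.37, 0.28 and 0.41, none of which passed. In a table of 536 tested rows, miR-222-3p was the 118th closest to miR-221-3p and miR-221-3p the 79th closest to miR-222-3p (distance 0.50). Both come from 1 locus. All 4 points come from the same libraries and share their depth.

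Other miRNAs reported to act on Cdkn1b went in different directions. Of the 8 tested rows of this list, 2 fell and none rose, which leaves 6 not past the threshold. Their median log2 fold change was 0.31, against 0.018 over all tested rows, where 4.1% were called higher and 5.41% lower. The 2 rows are copies of miR-196a-5p, a Hox-cluster miRNA, and share 1 sequence. The first copy had 11460 and 11130 CPM in WT replicates 1 and 2, and 5575 and 6787 CPM in the damaged ones. edgeR gave it a log2 fold change of -0.87 (adjusted p = 0.0275). Its damaged libraries lay well below WT.

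miR-196b-5p, of the same family, averaged 9834 ± 343 CPM for WT and 6932 ± 871 CPM for damaged vesicles (SD, n = 2), and with -0.50 it did not pass (adjusted p = 0.0643 by edgeR). Both rows of miR-181a-5p, which share 1 sequence, had log2 fold changes of 0.41 and 0.40 (adjusted p = 0.101 and 0.104), near that of miR-222-3p. miR-152-3p had 0.49 ± 0.50, miR-148a-3p 0.22 ± 0.19 and miR-455-3p, at 5.41 CPM in WT, 1.25 ± 0.45 (SE), and none passed. Both rows of miR-24-3p were at 0 in every library and share bases with an opposite-strand entry, so this miRNA was not measured. Without damaged replicate 2 the median of the list was -0.16.

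miRNAs that increase as myoblasts differentiate, opposite to miR-221 and miR-222, were mostly not called. Of 20 tested rows, 3 rose, 1 fell and 16 did not pass, beside table-wide shares of 4.1% called higher and 5.41% called lower. The median log2 fold change was 0.024. The risers were both copies of miR-133a-3p (1.14 and 1.12) and miR-133b-3p (1.22), muscle miRNAs so alike that reads may be split between their rows. miR-322-5p fell (-1.33), and the most abundant row, miR-206-3p, did not pass (0.18, adjusted p = 0.334 by edgeR).

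Of 6 tested rows of angiogenesis-linked miRNAs, a process in which the pair is also known, miR-296-5p rose (1.61), the hypoxia miRNA miR-210-3p fell (-0.86) and 4 did not pass (table-wide, 4.1% higher and 5.41% lower). Its most abundant row, miR-23b-3p, had 0.52 (adjusted p = 0.0669 by edgeR), and the median was -0.29. Among 76 other tested rows of chromosome X, 1 rose (miR-2137, 1.83) and 4 fell, namely miR-351-5p, miR-322-5p again and the 2 identical rows of miR-450a-5p, while 71 were not called (median -0.15). The 4 lower calls among 76 rows are near the table-wide 5.41%, and the 1 higher call is below the table-wide 4.1%. let-7f-5p, the most abundant of them, had -0.16 (adjusted p = 0.425). The edgeR calls in these lists were lost when WT replicate 1, WT replicate 2 or damaged replicate 1 was left out. Such a fit has 1 library in a group and less power, so the loss does not show dependence on the library left out. On these 3 sets limma-voom called 0, 0 and 70 rows, and DESeq2 59, 73 and 75. Without damaged replicate 2 edgeR still called 30 rows, among them 3 higher and 3 lower of the differentiation list, 2 lower of the Cdkn1b list, 1 higher and 5 lower of the other X rows, and 0 of the angiogenesis list.

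**Figure D4:**
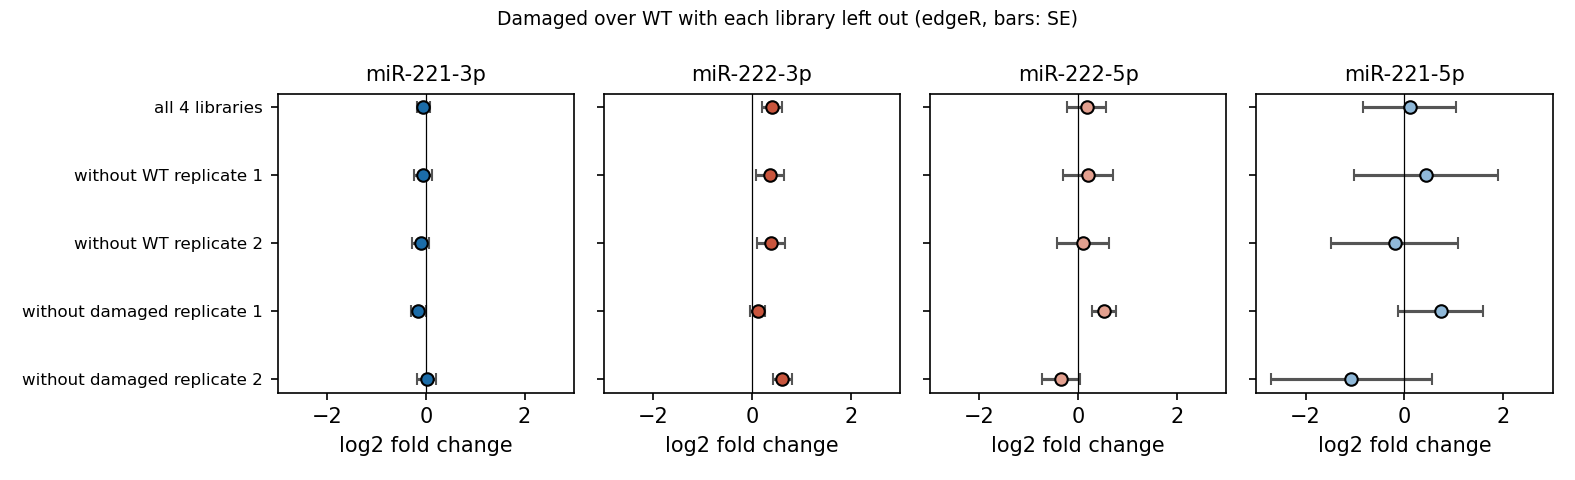
Log2 fold change of damaged over WT by edgeR (horizontal axis, bars are SE) for each of the 4 entries, with all libraries and with each library left out. miR-222-3p stays above 0 but moves from 0.11 to 0.62 depending on which damaged library is kept. Both 5p arms change sign without damaged replicate 2, as does miR-221-3p, by a small amount (from -0.052 to 0.015). miR-221-5p also changes sign without WT replicate 2 (-0.19).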

How the data were processed

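The deposited file holds read counts per mature miRNA entry, 1 column per library, not pooled and not normalized. Reads over miRNA features were counted by ID, per the file headers, with featureCounts 2.0.1 and with no option for strand, multi-mapping or overlapping features. BWA, FastQC and the mm10 build are named, per the submitters' processing notes; BWA's version and any trimming: not given in the sources used here. Columns of the WT group are headed only as muscle vesicles, without the word damaged, and were matched by that and by number.

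Of 2110 rows, 1734 matched a RefSeq mature miRNA (GRCm38.p6) by position, 6 were named from another copy and 358 from the GENCODE vM21 hairpin; 12 stayed unnamed. The main test was edgeR 4.0.16 (R 4.3.3): quasi-likelihood, TMM, filterByExpr at a minimum count of 10, group only, Benjamini-Hochberg over 536 rows at 0.05. SE is the log2 fold change divided by the square root of F. Ratios used a pseudocount of 0.5. A count of 0 allows up to 3 counts, or 0.394 to 0.664 CPM by library. DESeq2 1.42.0 and limma 3.58.1 were alternatives. Fits were tested on simulated data with larger fold changes than those estimated for the entries, so power for small changes was not tested.

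The text names every entry of both hairpins, rows with the same seed, the Cdkn1b list, the 3 most alike IDs, neighbours in level and, of other lists, called rows and the most abundant one. Members and lists were chosen with earlier results of these data known.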

Additional observations from a re-analysis of the deposited data

How the results depend on the processing

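Under the 11 other settings on 4 libraries no entry was called; the log2 fold change of miR-222-3p ran from 0.34 to 0.44 (adjusted p = 0.107 to 0.333) and that of miR-221-3p from -0.11 to -0.012. The count of called entries was 0 to 1 with 1 library left out, the 1 being miR-222-3p by DESeq2 and limma-voom without damaged replicate 2, both chosen after seeing the data. With 1 library left out, by edgeR, DESeq2 and limma-voom in this order, miR-221-3p ran from -0.16 to 0.015, -0.12 to 0.042 and -0.15 to 0.023. miR-222-5p ran from -0.35 to 0.53, -0.33 to 0.58 and -0.34 to 0.53, and miR-221-5p from -1.07 to 0.73, -1.05 to 0.78 and -0.82 to 0.82 (DESeq2 gave -0.22 without WT replicate 2). miR-221-5p was too low to be tested under the stricter filter (10 CPM in 2 libraries). Without 1 library, the 3p to 5p difference ran from -0.89 to 1.02 for miR-221 and from -0.41 to 0.97 for miR-222. Rows called over the table were 51, against 77 with upper quartile scaling, 131 with no filter, 91 with the stricter filter, 100 by DESeq2, 79 by limma-voom and 127 with the replicate number as a block; with 1 library left out they were 0 to 30 by edgeR, 59 to 75 by DESeq2 and 0 to 98 by limma-voom. Replicate numbers were not shown to pair the libraries (correlation of the replicate differences 0.00316). With the block, edgeR gave -0.075 for miR-221-5p and an unadjusted p of 0.0334 for miR-222-3p (adjusted p = 0.112). The block cannot move the differences of the 3 log2 ratios (-0.43, 0.065 and 0.28). Averaging the differences within replicate numbers gives the same value as the difference of the group means. Over all 4-library settings the differentiation list had 2 to 5 rows called higher and 1 to 4 lower, the Cdkn1b list 0 to 2 and 1 to 3, the angiogenesis list 1 to 2 and 1 to 2, and the other X rows 1 to 7 and 3 to 12. The cause of these movements was not tested. Depth limits miR-221-5p most, at 8 to 31 counts.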
